A study of Mus musculus with 18 samples.

Results

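Donor T cells lacking Wapl were set against donor T cells with intact Wapl on day 7 after syngeneic transplantation, with 3 libraries on each side. These 6 libraries were chosen by the transplant type and genotype in their labels, out of 18 samples in the series, and the comparison covered all 18447 genes that passed a filter on low counts. The Wapl protein unloads cohesin, a ring complex that folds chromosomes into loops and keeps sister chromatids together, and without it cohesin stays on chromatin for longer. In a syngeneic transplant donor and host share their tissue antigens, so donor T cells expand into an irradiated, emptied host without meeting foreign tissue. An irradiated host also rebuilds red cell and myeloid production in the spleen.

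The labels describe the donors as female C57BL/6 mice with the CD45.2 marker, aged 8 to 12 weeks, and do not give the Cre line, the deleted exons or a separate sex for the Wapl KO donors. Recipients were irradiated with 9.5 Gy and given 5000000 T cell depleted marrow cells with 8500000 donor T cells. The syngeneic hosts are named as B6.SJL-Ptprca Pepcb/BoyJ, but the cell type entry of the 3 syngeneic KO libraries names CByJ.SJL(B6)-Ptprca/J, the host strain of the allogeneic arm. Those libraries were kept as syngeneic by their transplant type, and the difference in that entry cannot be told apart from genotype. Spleen T cells were enriched with a kit and sorted as live CD3+ CD45.2+ cells, a gate that separates donor cells from CD45.1+ host cells but not from cells grown out of the donor marrow. Each library pooled 2 to 4 mice and started from 100 ng of RNA with ribosomal RNA depletion. The 6 libraries of the allogeneic arm (hosts given 8 Gy and 1000000 donor T cells) entered the same statistical fit and are quoted beside the syngeneic values. Libraries are written WT1 to WT3 and KO1 to KO3 by replicate. Levels below are CPM, gene counts divided by the TMM-scaled size of the library, and changes are log2 fold changes of KO over WT with their standard error (SE).

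The 6 libraries held 48086217 to 65621839 counts. Between 20.2 and 32.1% of these lay in ribosomal RNA genes, with the highest share in KO1. In a principal component analysis of the 6 libraries that library also stood farthest out on the first component (52.5% of the variance), at 93.8 against 31.8 for KO2. The targeted gene, listed under its older symbol Wapal (chromosome 14, 34673928 to 34747983, plus strand, GRCm38), stood at 170.1, 211 and 183 CPM in WT and 127, 139 and 137 CPM in KO. Every KO library lay below every WT library, and Wapl fell by 0.48 ± 0.11 on the log2 scale (edgeR adjusted p = 0.0368). That call did not hold without WT2 or WT3 or without KO1, KO2 or KO3 (adjusted p = 0.0869 to 0.198). Which exons were removed is not given in the sources used here, so counts over the whole gene do not measure how much functional transcript was left. T cell identity was plain in all libraries: Cd3e, a chain of the T cell receptor complex, stood at 485, 359 and 366 CPM in WT and 638, 434 and 402 CPM in KO.

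The KO pools carried transcripts of the Y chromosome. Kdm5d stood at 0.778, 1.33 and 1.06 CPM in WT and 11.9, 36.9 and 45.6 CPM in KO, and Ddx3y, an RNA helicase, at 0, 0.103 and 0.0852 and 9.79, 29.9 and 31.7 CPM. All 4 tested Y-linked genes (Kdm5d, Ddx3y, Eif2s3y, Uty) rose, by 4.90 ± 0.66 to 8.63 ± 0.86. Their summed level was 32.3, 99.4 and 116 CPM in the KO replicates in that order. Xist, the RNA that silences the inactive X chromosome in female cells and looked up after these values were seen, ran the other way over the same libraries, at 757, 320.3 and 114 CPM in KO against 1033, 1372 and 1132 CPM in WT (−1.57 ± 0.73, edgeR adjusted p = 0.376). Donor sex and genotype cannot be told apart in this comparison.

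After syngeneic transplantation 137 genes rose in KO and 485 fell (edgeR quasi-likelihood test with Benjamini-Hochberg adjustment, calling adjusted p below 0.05). The rises were mostly modest and the falls mostly steep: the median change was 1.12 among the genes that rose, 57 of them by less than 2-fold, and −2.52 among those that fell, 272 of them by at least 4-fold. Over all tested genes the median was 0.06. These calls amount to 0.743% of tested genes upward and 2.63% downward, 3.37% in all (4.22% when the replicate number entered the fit as a block, 139 upward and 640 downward). The 3 KO libraries lay entirely above the WT libraries for 13.2% of tested genes and entirely below for 10.1%. Of the called genes 42 rises and 179 falls kept their call when each syngeneic library was left out in turn. The count of rises went to 85 without KO1, 56 without KO2, 50 without WT2 and 57 without WT3. The count of falls went to 210 without KO2, 210 without WT2 and 223 without WT3.

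**Figure D1:**
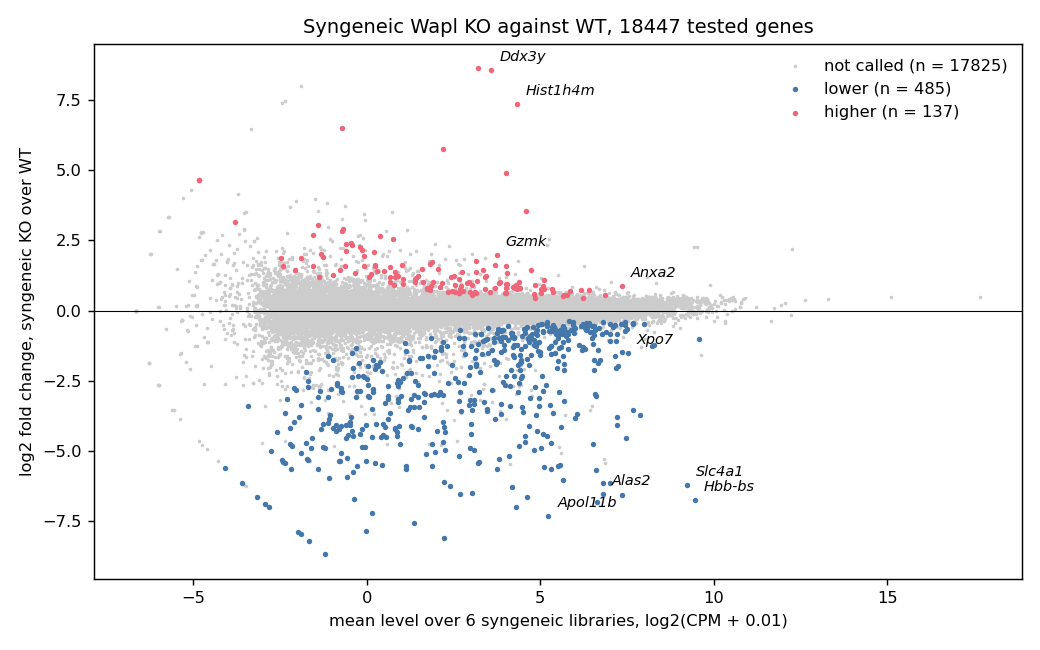
Log2 fold change of syngeneic KO over WT against mean level (log2 of CPM + 0.01, mean of 6 libraries) for 18447 tested genes, with 137 called rises in red, 485 called falls in blue and genes not called in grey. Falls reach −8 and include abundant genes such as Hbb-bs and Slc4a1, while most rises lie between 0.4 and 2, apart from Hist1h4m and Y-linked genes such as Ddx3y.

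The inhibitory receptor genes Lag3, Pdcd1, Havcr2 and Tigit rose in KO. Such receptors appear on T cells after repeated stimulation and dampen their response. Lag3, which binds MHC class II (chromosome 6, 124904361 to 124911705, minus strand), stood at 8.25, 7.50 and 8.36 CPM in WT and 26.2, 24.7 and 22.2 CPM in KO. All KO libraries lay far above the WT libraries and the replicates were tight, giving a rise of 1.60 ± 0.12 (edgeR adjusted p = 4.08e-05). Pdcd1, which encodes PD-1, stood at 14.8, 13.6 and 14.5 CPM in WT and 47.4, 37.3 and 30.5 CPM in KO and rose by 1.43 ± 0.22 (adjusted p = 0.00319). Havcr2, the gene of TIM-3, stood at 3.35, 3.37 and 5.52 CPM in WT and 14.4, 18.0 and 8.73 CPM in KO and rose by 1.75 ± 0.25 (adjusted p = 0.00210). KO3 was the lowest KO library for both and still lay above every WT library. Tigit, a receptor for nectin-like ligands, rose by 0.98 ± 0.15 from 9.01, 10.3 and 9.05 to 22.2, 18.9 and 14.8 CPM (adjusted p = 0.00319). These 4 calls held without any 1 of the 6 libraries. Tox, a nuclear factor of chronically stimulated T cells, rose by 0.56 ± 0.12 (adjusted p = 0.0169), a call lost without WT2, WT3 or KO1 (adjusted p = 0.0599 to 0.108).

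In the list of inhibitory receptors and exhaustion genes 5 of 17 tested members rose and 0 fell, against 0.743% and 2.63% of all genes, and the list's median change was 0.26. Ctla4, which competes with CD28 for its ligands, was not called: it stood at 10.8, 17.7 and 11.3 CPM in WT and 19.2, 12.7 and 8.51 CPM in KO (0.02 ± 0.28), with overlapping groups. Entpd1, the ectonucleotidase CD39, had 0.52 ± 0.19 and was not called. In every allogeneic library Lag3, Pdcd1 and Tigit lay above all 6 syngeneic libraries. Lag3 stood at 193 ± 6.33 CPM in allogeneic WT and 220.3 ± 26.4 CPM in allogeneic KO (SD, n = 3 each), Pdcd1 at 312 ± 21.7 CPM in allogeneic WT and 428 ± 150.5 CPM in allogeneic KO, and Tigit at 177 ± 13.4 CPM in allogeneic WT and 169 ± 23.2 CPM in allogeneic KO.

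**Figure D2:**
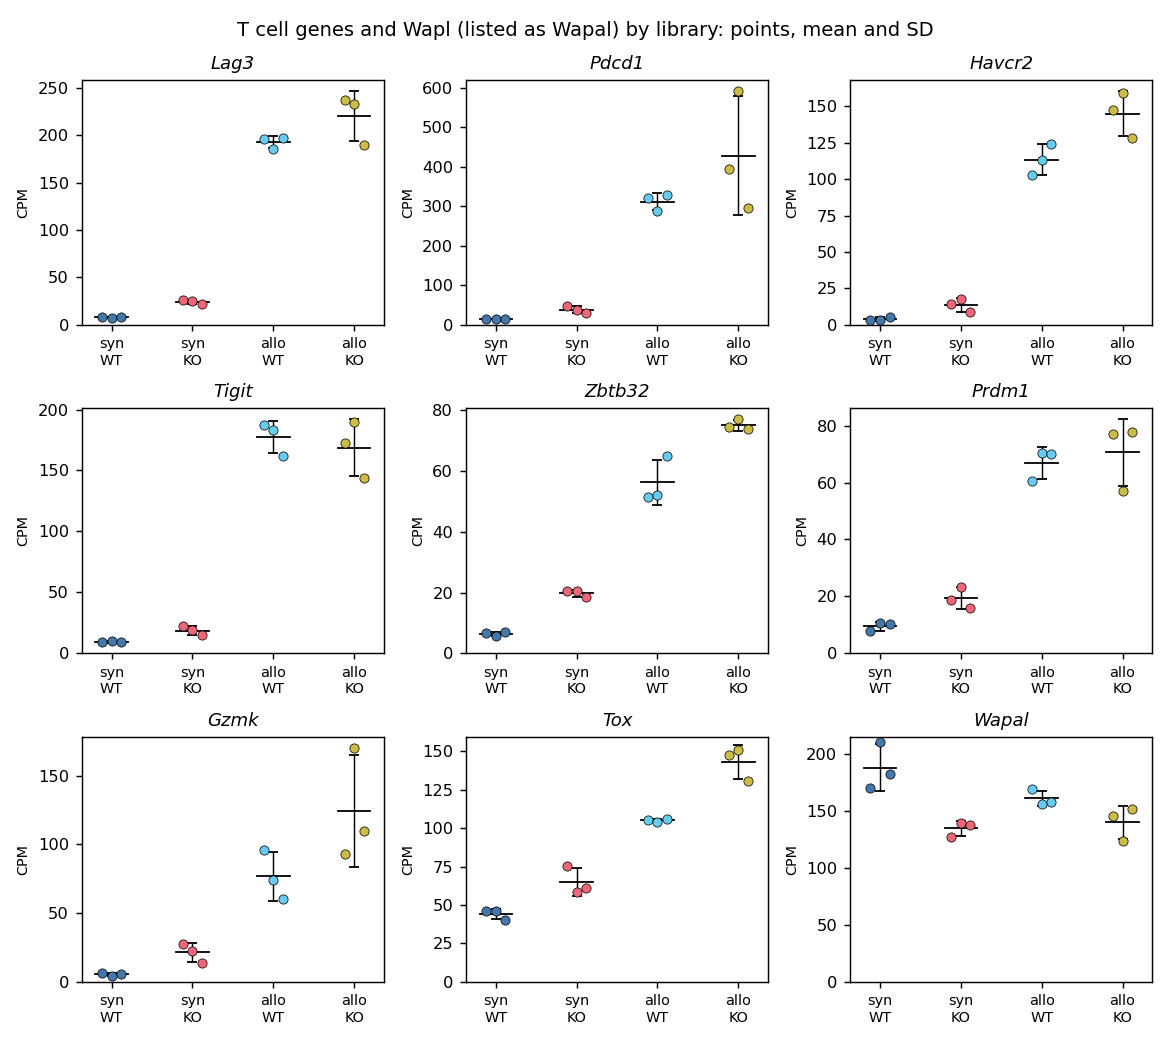
CPM of 8 T cell genes that rose in syngeneic KO and of Wapl (listed as Wapal) in each library of the 4 groups; points are libraries, horizontal lines means and bars SD (n = 3). For all 8 genes every syngeneic KO point lies above every syngeneic WT point, and both allogeneic groups lie higher still, while Wapl is lower in syngeneic KO than in syngeneic WT.

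Transcription regulators and effector molecules of activated T cells were part of the same set of rises. Zbtb32, a zinc finger repressor induced on lymphocyte activation (chromosome 7, 30589681 to 30598909, minus strand), went from 6.64, 5.72 and 6.85 CPM in WT to 20.5, 20.4 and 18.4 CPM in KO. Its rise of 1.63 ± 0.12 (edgeR adjusted p = 4.08e-05) came with no overlap between the groups, and the 3 KO libraries lay close together. Prdm1, which encodes the terminal differentiation factor Blimp-1, rose by 1.03 ± 0.17, from 7.75, 10.6 and 10.2 to 18.8, 23.4 and 15.9 CPM (adjusted p = 0.00536). Gzmk, a granzyme, stood at 6.43, 4.43 and 5.49 CPM in WT and 27.8, 22.4 and 13.8 CPM in KO and rose by 1.97 ± 0.29 (adjusted p = 0.00285). These 3 calls also held without any 1 library.

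Of 25 tested effector and cytotoxic genes, 3 rose (Gzmk, Prdm1 and Ccl3) and 0 fell, with a median change of 0.50 and 23 of 25 values above 0. Over all tested genes 0.743% rose and 57.0% of values were above 0. Without KO3 the number called was 5. Ccl3, an inflammatory chemokine, stood at 4.12, 5.12 and 7.38 CPM in WT and 15.5, 22.2 and 7.10 CPM in KO, where replicate 3 fell inside the WT range. Its change of 1.43 ± 0.35 (adjusted p = 0.0443) was not called with the replicate block (adjusted p = 0.0705) or without WT1, WT2, WT3, KO1 or KO2 (adjusted p = 0.0615 to 0.196). The classic killing and cytokine genes were not called. Gzmb had 84.8, 67.1 and 111 CPM in WT and 178, 241 and 112 CPM in KO (1.02 ± 0.30), Prf1, the pore protein perforin, 0.31 ± 0.18, Ifng 0.69 ± 0.40 and Tbx21, the type 1 helper regulator T-bet, 0.48 ± 0.16. Gzmb was called by DESeq2 (adjusted p = 0.0209).

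The cytokines Il10 and Il21 rose from low levels. Il10, an inhibitory cytokine, went from 0.467, 0.496 and 0.341 CPM in WT to 2.57, 2.39 and 0.654 CPM in KO (2.10 ± 0.49, edgeR adjusted p = 0.0352), and Il21, a cytokine of helper cells, from 1.34, 1.52 and 2.30 to 6.15, 8.11 and 2.80 CPM (1.73 ± 0.38, adjusted p = 0.0243). In both, KO3 was by far the lowest of the KO libraries, close to the highest WT library. Neither call held without KO1 or KO2 or without WT1 or WT2, and for Il10 also without WT3 (adjusted p = 0.0803 to 0.165 for Il10 and 0.0642 to 0.131 for Il21). Among 15 tested regulatory T cell genes 2 rose, Il10 and Nrp1, a semaphorin co-receptor that marks thymic regulatory cells (0.61 ± 0.13; lost without WT1, WT3, KO1 or KO3, adjusted p = 0.0709 to 0.0994). Foxp3, the factor that defines regulatory T cells, stood at 21.3, 28.0 and 23.4 CPM in WT and 28.3, 25.5 and 38.4 CPM in KO (0.34 ± 0.22) and was not called. Il21 was the 1 of 8 type 17 helper genes that rose, and 0 of 9 type 2 helper genes were called, with Maf at 0.57 ± 0.16 (edgeR adjusted p = 0.0750). The share of rises over all tested genes was 0.743%.

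RefSeq gives the sequences before the start of 2 of these genes, Pdcd1 and Zbtb32, shown because both rose in every KO library and contrast with 2 promoters of genes that fell, printed further on (RefSeq, GRCm38.p6, 200 bases, none within the annotated gene). Capitals mark matches to CCNCNCCC, the CACCC-like pattern bound by Kruppel-like factors, on either strand; matches can overlap each other.
Pdcd1 (chr1:94052554-94052753, minus strand): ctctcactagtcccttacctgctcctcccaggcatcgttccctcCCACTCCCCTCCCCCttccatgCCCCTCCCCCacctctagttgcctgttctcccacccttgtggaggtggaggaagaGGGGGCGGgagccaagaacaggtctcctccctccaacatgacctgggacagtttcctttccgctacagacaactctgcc
Zbtb32 (chr7:30598910-30599109, minus strand): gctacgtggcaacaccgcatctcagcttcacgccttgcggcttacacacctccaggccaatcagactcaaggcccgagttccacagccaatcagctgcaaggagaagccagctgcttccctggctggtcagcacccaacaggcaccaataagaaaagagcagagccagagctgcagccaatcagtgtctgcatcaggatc
The Pdcd1 stretch held 6 such matches and the Zbtb32 stretch 0. Neither held AGATAA, a form of the pattern bound by GATA factors, and other forms of that pattern were not searched. In the 250 bases before the start, CCNCNCCC was present for 72.4% of the 98 risen genes with an entry, 70.4% of the 365 fallen genes and 65.9% of the 11583 tested genes. It was present for 48.5% of the 27021 genes in the table. TGANTCA, the AP-1 pattern, was present for 13.3% of risen, 8.77% of fallen and 5.65% of tested genes, and for 7.82% of genes in the table. All patterns were searched on both strands, where different patterns could overlap, and a match is a description of letters only.

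Other rises covered membranes, survival and cell shape. Emp1, an epithelial membrane protein, stood at 4.85, 5.44 and 4.36 CPM in WT and 8.10, 18.2 and 11.9 CPM in KO and rose by 1.38 ± 0.23 (edgeR adjusted p = 0.00443). Synj2, a phosphoinositide phosphatase, went from 9.13, 10.1 and 8.91 to 20.7, 23.9 and 26.4 CPM (1.33 ± 0.17, adjusted p = 0.00102), and St14, the membrane protease matriptase, from 6.35, 5.39 and 5.93 to 12.7, 12.5 and 11.9 CPM (1.07 ± 0.11, adjusted p = 2.48e-04). Groups did not overlap for any of the 3, and their calls held without any 1 library, as the naming rule required of the largest rises. Fam129a, a stress-induced translation regulator also called Niban, rose by 0.69 ± 0.10, from 41.3, 48.6 and 43.4 CPM in WT to 71.7, 70.1 and 72.8 CPM in KO. Anxa2, a calcium-dependent membrane binding protein and the most abundant named rise, went from 113, 108 and 126 to 252, 195 and 184 CPM (0.86 ± 0.19). The Anxa2 call was lost without WT1, WT2, WT3, KO1 or KO2 (adjusted p = 0.0630 to 0.132). Among p53 targets 2 of 19 rose, Cdkn1a, the cell cycle inhibitor p21 (1.02 ± 0.23), and Perp (1.34 ± 0.29), and 1 fell. Among survival and apoptosis genes 2 of 21 rose, the anti-apoptotic Bcl2a1d (1.37 ± 0.28) among them, and 1 fell. Of all tested genes 0.743% rose and 2.63% fell. The calls of Cdkn1a, Perp and Bcl2a1d were each lost without WT2 and without KO1, and some without other libraries (Cdkn1a and Perp without KO2 too, Cdkn1a also without WT1 and Perp also without WT3). Without those libraries adjusted p reached 0.139 for Cdkn1a, 0.108 for Perp and 0.0955 for Bcl2a1d.

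Some rises belonged to families with near-identical copies, where reads can be split between members. Hist1h4m, a histone H4 gene (chromosome 13, 21811746 to 21812147, plus strand), was nearly silent in WT at 0.187, 0.222 and 0.324 CPM and stood at 58.3, 29.9 and 31.3 CPM in KO, a rise of 7.34 ± 0.52 (edgeR adjusted p = 4.08e-05). The allogeneic arm showed the same split, at 0.141 ± 0.0824 CPM in allogeneic WT and 65.9 ± 28.0 CPM in allogeneic KO (SD, n = 3 each). It was the 1 called gene of 37 tested replication-dependent histones, whose median change was 0.40. Hist1h4n, another histone H4 gene picked after its values were seen, had the 1 negative change of that list (−0.62, not called). Its mean was 67.4 CPM in syngeneic WT and 43.8 CPM in syngeneic KO, and 81.2 CPM in allogeneic WT and 64.5 CPM in allogeneic KO. Whether reads were assigned differently between these copies was not tested. Pydc3, Ifi208 in later annotation and a member of a family induced by interferon (chromosome 1, 173673675 to 173698395, plus strand), went from 63.4, 49.2 and 48.8 to 111, 89.6 and 69.3 CPM (0.74 ± 0.18, adjusted p = 0.0374; lost without WT2, WT3, KO1 or KO2, 0.115 to 0.195). Another member, AI607873, fell by 1.98 ± 0.40 from 0.949, 2.67 and 2.38 to 0.342, 0.619 and 0.555 CPM, a call lost without the same 4 libraries (adjusted p = 0.0541 to 0.0915), and the other 10 of 12 tested members were not called.

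The falls were led by genes of red cell precursors. These cells fill with globin, haem and a spectrin-based membrane skeleton before they lose their nucleus. Hbb-bs, an adult beta globin (chromosome 7, 103826534 to 103828096, minus strand), stood at 886, 1786 and 1512 CPM in WT and 8.72, 5.05 and 24.7 CPM in KO. The groups were far from overlapping, and Hbb-bs fell by 6.77 ± 0.68 on the log2 scale (edgeR adjusted p = 5.53e-04). Slc4a1, the band 3 anion exchanger of the red cell membrane, fell by 6.20 ± 0.79 from 564, 1599.9 and 1389 to 8.28, 7.43 and 32.5 CPM (adjusted p = 0.00264). Of the transcription factors of the lineage, Gata1 fell and went from 13.7, 37.7 and 35.1 to 5.19, 6.03 and 8.57 CPM (−2.13 ± 0.47), and Klf1, with 19.7, 64.2 and 62.8 CPM in WT and 2.33, 4.50 and 10.9 CPM in KO (−3.05 ± 0.72), missed the threshold (adjusted p = 0.0525). Globin copies (Hbb-bs with Hbb-bt, Hba-a1 with Hba-a2) are close to identical, so their single values are uncertain.

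In all, 22 of 27 tested red cell precursor genes fell and 0 rose, against 2.63% and 0.743% of all genes, with a median change of −4.39; all 27 values were below 0. The membrane skeleton genes Sptb, Ank1 and Epb4.2 were among the called genes, with changes between −5.53 and −4.07, and Tfrc, the transferrin receptor that brings in iron, fell by 2.05 ± 0.36 from 121, 330.0 and 251 to 43.1, 54.3 and 72.5 CPM. The summed level of the list was 3129, 8048 and 6842 CPM in the WT replicates and 134, 186 and 422 CPM in the KO replicates, and 94.3 to 326 CPM in the allogeneic libraries. WT1 held less than the other WT libraries, and KO3 held most among KO. The number called went to 13 without KO1 and 9 without KO2, and was 25 with the replicate block. In sorted pools, fewer cells of a type and less RNA per cell cannot be told apart.

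**Figure D3:**
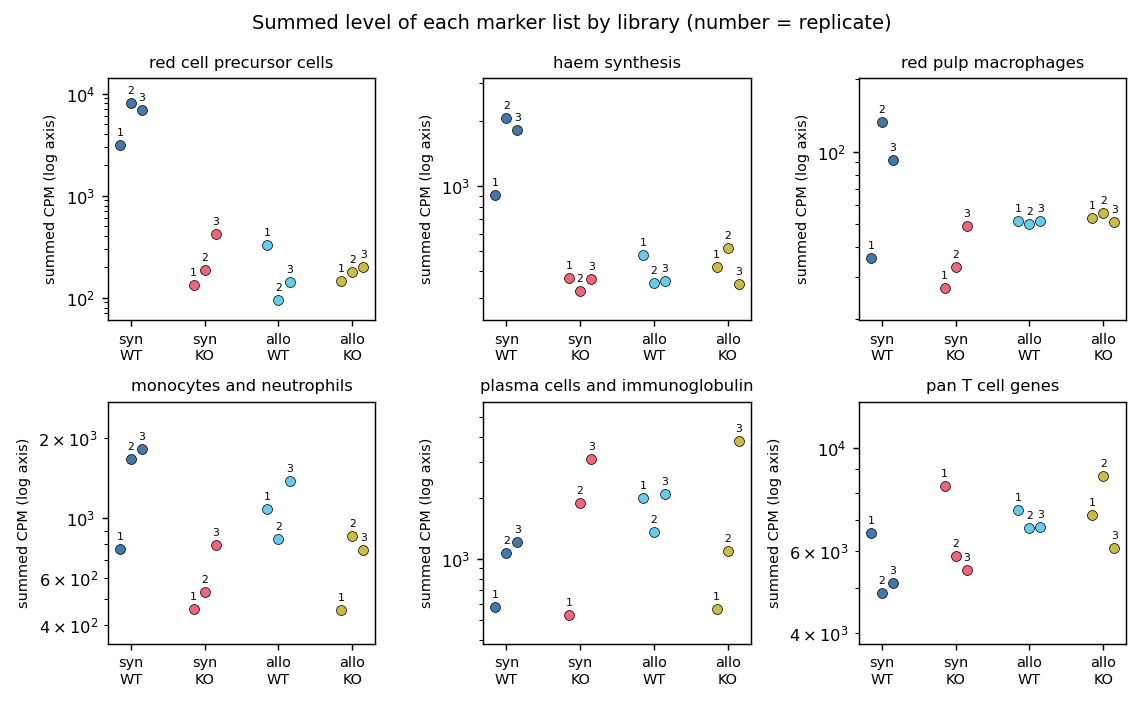
Summed CPM (log axis) of 6 marker lists in each library, numbered by replicate. Red cell precursor and haem synthesis genes are high in the 3 syngeneic WT libraries alone; red pulp macrophage genes are high in WT2 and WT3, while pan T cell genes and immunoglobulin genes overlap between syngeneic WT and KO.

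Genes of haem synthesis fell too. Haem is built in a chain of enzymatic steps shared between mitochondria and cytosol and then loaded into haemoglobin. Of 14 tested genes of haem synthesis and its transporters 11 fell and 0 rose (median change −1.60), 10 fell with the replicate block, and the number called stayed between 8 and 12 when any 1 library was left out. The first enzyme in red cells, Alas2 (chromosome X, 150547375 to 150570638, plus strand), went from 128, 292 and 247 CPM in WT to 1.61, 1.24 and 4.32 CPM in KO and fell by 6.55 ± 0.53 (edgeR adjusted p = 1.74e-04). Its counterpart in all other cells, Alas1, was not called, with a change of 0.17. Slc25a37, the mitochondrial iron importer mitoferrin, fell by 3.72 ± 0.31 from 231, 584 and 483 to 25.3, 34.8 and 38.1 CPM (adjusted p = 9.15e-05). Fech, which inserts the iron in the last step, fell by 2.97 ± 0.33, and Abcb10, a mitochondrial transporter that stabilises mitoferrin, fell by 3.22 ± 0.44. Ppox, the enzyme before Fech, fell by 1.61 ± 0.22 from 48.0, 91.5 and 90.3 to 21.5, 25.9 and 28.1 CPM. None of these falls was lost without any 1 library.

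The stretches before Alas2 and before Slfn14, a gene that fell to near 0 and is described next, are printed (RefSeq, GRCm38.p6). They show AGATAA and CACCC-like matches in front of a haem gene and of another steep fall. Capitals mark AGATAA (read as TTATCT on the other strand) or CCNCNCCC on either strand; the Alas2 stretch stops where the annotated gene begins.
Alas2 (chrX:150547217-150547374, plus strand): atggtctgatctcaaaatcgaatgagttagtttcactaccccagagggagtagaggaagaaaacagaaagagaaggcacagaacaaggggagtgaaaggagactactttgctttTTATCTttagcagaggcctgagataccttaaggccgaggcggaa
Slfn14 (chr11:83286727-83286926, minus strand): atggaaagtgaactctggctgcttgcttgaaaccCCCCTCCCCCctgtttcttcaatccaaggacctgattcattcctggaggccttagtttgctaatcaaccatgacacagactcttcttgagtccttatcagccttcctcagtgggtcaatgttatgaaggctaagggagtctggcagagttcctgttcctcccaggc
Alas2 held 1 AGATAA match and 0 CCNCNCCC matches, and Slfn14 held 0 and 2. Only this form of the GATA pattern was counted, so a count of 0 does not exclude other forms in the stretch. In the 250 bases before the start, AGATAA was present for 11% of fallen, 10.2% of risen and 7.75% of tested genes, and for 11.4% of the 27021 genes in the table.

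Many of the other steep falls were genes with less familiar names. Apol11b and Apol10a, of the apolipoprotein L cluster on chromosome 15, had changes of −7.33 ± 0.57 and −8.11 ± 0.69. Apol11b stood at 44.0, 82.5 and 97.7 CPM in WT and 0.442, 0.120 and 0.853 CPM in KO, so KO was close to 0. Of the 8 tested Apol genes 4 fell and 0 rose, and the 4 calls held without any 1 library; Apol11a was listed at 0 in KO1 and KO2. Slfn14, an RNA-cleaving Schlafen protein (chromosome 11, 83275110 to 83286726, minus strand), went from 23.5, 51.0 and 42.0 to 0.442, 0.0688 and 0.416 CPM (−7.00 ± 0.52, edgeR adjusted p = 4.08e-05) and was the 1 of 9 Schlafen genes that fell (2 with the replicate block). Rsad2, the antiviral protein viperin, was the 1 of 28 interferon response genes that fell, by 3.68 ± 0.32 from 80.2, 159.8 and 132 to 13.8, 8.61 and 6.64 CPM (adjusted p = 1.20e-04). The number of interferon response genes called was 2 with the replicate block, 3 without KO1 and 2 without KO2. With 2.63% of all tested genes called lower, 1 fall in the Schlafen or the interferon list is not read as a result about that list. Cd36, a fatty acid receptor, fell by 6.26 ± 0.61. Ypel4 and Sowaha had changes of −6.30 ± 0.61 and −6.49 ± 0.63.

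Several other genes fell by less. Xpo7, a nuclear export receptor, went from 210.0, 333 and 278 CPM in WT to 95.1, 99.7 and 94.1 CPM in KO (−1.51 ± 0.15, edgeR adjusted p = 1.74e-04), and Epb4.1, the protein 4.1 link between spectrin and membrane, from 356, 513 and 448 to 195, 188 and 179 CPM (−1.23 ± 0.14). Ube2o, a ubiquitin enzyme, fell by 1.89 ± 0.17 from 118, 187 and 173 to 42.2, 45.3 and 41.9 CPM. Gadd45a, the fallen p53 target, went from 5.87, 11.7 and 11.7 to 2.37, 1.50 and 1.59 CPM (−2.42 ± 0.35), and Bcl2l1, the survival protein BCL-XL, from 86.8, 108 and 105 to 68.8, 62.2 and 62.5 CPM (−0.63 ± 0.13). The Bcl2l1 call was lost without WT2, WT3, KO2 or KO3 (adjusted p = 0.0585 to 0.0990). E2f2, a cell cycle factor, fell by 0.64 ± 0.15, lost without the same 4 libraries (0.0944 to 0.151). Rnf10, Wdr26 and Picalm, a clathrin assembly protein, fell by 0.45 to 0.50, and each call was lost without WT2 or WT3 or any 1 KO library, at adjusted p of at most 0.239.

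Most falls shared an order over the WT libraries. WT1, with the lowest red cell sum, was the lowest WT library for 456 of the 485 fallen genes (94.0%), against 35.2% of all tested genes. WT2, with the highest red cell sum, was the highest WT library for 376 of them (77.5%), against 33.2% of all tested genes. The red cell sum covers 27 genes, 22 of which are among the 485, so these counts are not independent of the sum. In all 420 fallen genes stood in none of the 41 gene lists used, and whether they come from the same cells was not tested. These lists together held 640 of the 18447 tested genes, so most genes of any kind stood in none. Of the 137 risen genes 0 stood in a list of another cell type. Those lists are only a part of the 640 genes, so this count is not read as a result. The highest KO library was replicate 1 for 53 risen genes, replicate 2 for 37 and replicate 3 for 47.

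Genes of red pulp macrophages, which clear old red cells and recycle their iron in the spleen, fell in part. Of 17 tested members 11 fell and 0 rose (median change −2.99), and 13 fell with the replicate block. Axl, a related receptor of dying cells, had a change of 0.38 and was not called. C1qa, a subunit of the complement protein C1q, stood at 0.747, 3.66 and 2.50 CPM in WT and 0.0603, 0 and 0.0992 CPM in KO (−5.43 ± 0.88, edgeR adjusted p = 0.00443). Slc40a1, the iron exporter ferroportin, went from 5.21, 25.0 and 16.3 to 0.482, 1.38 and 2.76 CPM (−3.33 ± 0.71), and Mertk, a receptor for dying cells, from 0.482, 2.19 and 1.19 to 0, 0.0344 and 0.139 CPM (−4.44 ± 0.79; adjusted p = 0.0554 without KO2). Spic, the factor that specifies these macrophages, had a change of −0.79 and was not called. The list summed to 35.9, 133 and 92.5 CPM in WT and 26.8, 32.9 and 48.7 CPM in KO, so WT1 lay inside the KO range. There were 4 members called without WT2, 4 without WT3, 5 without KO1 and 2 without KO2.

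Among 23 tested monocyte and neutrophil genes 5 fell and 0 rose; the number was 12 with the replicate block, 1 without WT2, 2 without WT3, 2 without KO1, 1 without KO2 and 9 without KO3. Its members differed widely in their values. Ltf, the late granule protein lactoferrin, stood at 89.0, 223 and 260.3 CPM in WT and 1.21, 0.533 and 9.54 CPM in KO (−5.67 ± 1.31, edgeR adjusted p = 0.0482; lost without WT2, WT3, KO1 or KO2, 0.130 to 0.172). Ngp and S100a9, also of maturing neutrophils, had similar values without passing the test: Ngp stood at 99.7, 273 and 308 and 1.39, 0.842 and 13.4 CPM (−5.45 ± 1.30, adjusted p = 0.0560) and S100a9 at 106, 265 and 296 and 1.57, 0.808 and 14.8 CPM (−5.28 ± 1.36, adjusted p = 0.0802). Mpo and Elane, enzymes of the early granules, overlapped between groups, with Mpo at 42.0, 156 and 163 CPM in WT and 19.2, 131 and 286 CPM in KO (0.27 ± 0.90). Ngp, S100a9, Mpo and Elane were picked from the list after their values were seen. Itgam, the integrin CD11b, fell by 2.32 ± 0.49 (lost without WT2 or WT3 or any 1 KO library, adjusted p = 0.0637 to 0.134), and Cybb, the phagocyte oxidase, fell by 1.93 ± 0.36 (lost without WT2 or either of KO1 and KO2, 0.0502 to 0.0663).

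Fewer genes of antigen presenting cells, B cells and platelets fell. The share of falls over all tested genes was 2.63%, so 1 call in a list is not read as a result about that cell type. Of 10 tested MHC class II presentation genes 3 fell, H2-Aa (−2.92 ± 0.61), H2-Ab1 (−2.31 ± 0.49) and their regulator Ciita (−1.80 ± 0.39), and 0 were called without WT2, WT3 or KO2, with 1 without KO1 and 4 with the replicate block. H2-Aa stood at 5.76, 13.4 and 15.2 CPM in WT and 0.482, 1.55 and 2.52 CPM in KO. Siglech, of plasmacytoid dendritic cells, was the 1 of 11 dendritic cell genes that fell, from 0.653, 1.44 and 1.64 to 0, 0.0172 and 0.139 CPM (−4.55 ± 0.71). Spib was the 1 of 20 B cell genes that fell (−1.99 ± 0.48; 3 of 20 fell with the replicate block and 4 were called without WT1), and its call was lost without WT2, WT3, KO1 or KO2 (edgeR adjusted p = 0.103 to 0.188). Gp9, a platelet glycoprotein, was the 1 of 6 platelet genes that fell (−3.09 ± 0.66, lost without WT2 or WT3 or any 1 KO library, 0.0550 to 0.111). Antibody genes were not called: Igkc stood at 48.0, 208 and 232 CPM in WT and 12.9, 401 and 707 CPM in KO, a spread wider than the difference, and 0 of 14 plasma cell and immunoglobulin genes were called (median 1.17). Their sum was 577, 1071 and 1214 CPM in WT and 528, 1887 and 3092 CPM in KO, with replicate 1 the lowest in both. For 19 NK and NKT genes and 8 gamma delta T cell genes the medians were −0.51 and −0.52, with 0 called by edgeR in either list; with the replicate block 1 gamma delta gene fell, Blk (adjusted p = 0.0472), and without WT1 the number called was 1 in each list. Without KO3 it was 1 among NK and NKT genes. Among the gamma delta T cell genes Trdc, the constant segment of the gamma delta receptor, had 14.2, 13.2 and 11.2 CPM in WT and 5.99, 6.19 and 6.21 CPM in KO (−1.07 ± 0.31, adjusted p = 0.0951 by edgeR and 0.0107 by DESeq2).

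Lists of growth and metabolism had mostly positive values with no gene called. All 29 tested oxidative phosphorylation genes, the respiratory chain and ATP synthase, had values above 0 (median 0.34), and 0 were called. Values above 0 were also found for 23 of 25 ribosome biogenesis and MYC target genes (median 0.24), 21 of 22 cholesterol synthesis genes (0.21), 15 of 20 glycolysis genes (0.32) and 26 of 30 S phase genes (0.22), and 0 of these were called. Over all tested genes 57.0% of values were above 0 and the median was 0.06. Without KO1 those figures were 50.1% and 0.00 over all genes, and the medians were 0.10 for oxidative phosphorylation, 0.12 for ribosome biogenesis, 0.04 for cholesterol synthesis, 0.20 for glycolysis and 0.09 for S phase. Gapdh, a glycolytic enzyme, stood at 389, 290.5 and 364 CPM in WT and 608, 508 and 551 CPM in KO (0.68 ± 0.18, edgeR adjusted p = 0.0612; 0.0497 with the replicate block, the 1 called gene of its list there). Of 26 G2 and mitosis genes 22 had values above 0 (median 0.13, and 0.09 without KO1), and 0 were called. Mki67, a proliferation marker, had the lowest value of that list (−0.45 ± 0.25). It stood at 1024, 1727 and 1725 CPM in WT and 939, 1154 and 1174 CPM in KO.

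T cell identity and naive genes gave no calls. Of 17 pan T cell genes 0 were called (median 0.29, and 0.01 without KO1), and the same was true of 4 CD4 and 4 CD8 lineage genes. Cd4 stood at 225, 181 and 156 CPM in WT and 285, 205 and 176 CPM in KO, and Cd8a at 651, 466 and 517 and 801, 608 and 523 CPM. Tcf7, which encodes the memory factor TCF1, had 0.08 ± 0.21, and Il7r, the receptor for the survival cytokine IL-7, had −0.42 ± 0.20 with KO libraries all below WT libraries. None of 15 naive and memory genes was called (median −0.16). Of 18 cohesin genes Wapl was the 1 that fell, and 0 of 8 condensin genes were called. Among 16 chemokine receptors and integrins 1 fell, where 2.63% of all tested genes fell. It was Ccr1 of myeloid cells (−2.49 ± 0.55, lost without WT2, WT3, KO1 or KO2, edgeR adjusted p = 0.0606 to 0.124). With the replicate block Cxcr3, a receptor of effector T cells, was called too (0.61 ± 0.17 and adjusted p = 0.0856 without the block, 0.0353 with it). Of 18 costimulatory and cytokine receptors 0 were called, with Tnfrsf9, the costimulator 4-1BB, nearest at 0.95 ± 0.24 (adjusted p = 0.0551). Of 14 immediate early genes 0 were called, against 1 lower with the replicate block and 2 called without KO1. Their sum was 2360.0, 2064 and 1863 CPM in WT and 3067, 1232 and 952 CPM in KO, where replicate 1 stood apart.

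**Figure D4:**
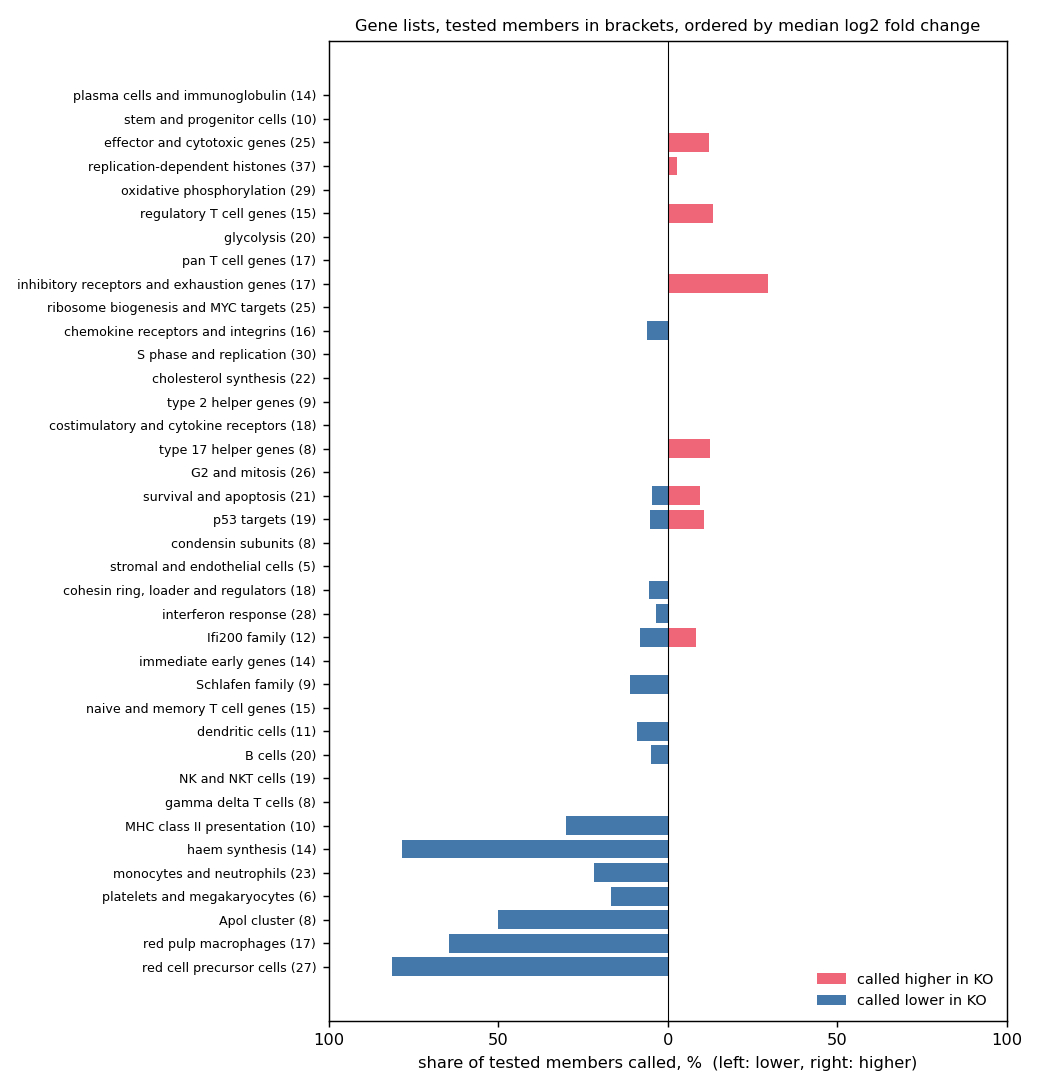
Share of the tested members of each list called higher (right, red) or lower (left, blue) in syngeneic KO, for the 38 lists with at least 5 tested members, ordered by median log2 fold change. Red cell precursor (22 of 27), haem synthesis (11 of 14) and red pulp macrophage genes (11 of 17) have the longest bars on the left, followed by the Apol cluster (4 of 8). Inhibitory receptors (5 of 17) have the longest bar on the right.

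The allogeneic arm shares no library with the syngeneic comparison. Of the 137 genes that rose after syngeneic transplant, 113 (82.5%) had a positive KO change after allogeneic transplant (median 0.29), and of the 485 that fell 338 (69.7%) had a negative one (median −0.14). Over all tested genes 64.3% had the same sign in both arms, and the median allogeneic change was 0.03. For 88 genes (0.477% of those tested) the 2 differences themselves differed in an edgeR interaction test, 9 more positive and 79 more negative after syngeneic transplant; 7 of the 137 rises and 78 of the 485 falls were among them. The count was 242 without syngeneic WT1, 34 without syngeneic WT2, 30 without syngeneic WT3, 35 without syngeneic KO1 and 32 without syngeneic KO2. It was 31 and 28 without allogeneic WT2 and WT3, and 41, 33 and 35 without allogeneic KO1, KO2 and KO3.

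Among the rises the interaction was called for Lag3, whose change was 1.60 ± 0.12 after syngeneic and 0.19 ± 0.11 after allogeneic transplant (difference 1.41 ± 0.16, edgeR adjusted p = 0.00291). Zbtb32 gave 1.63 ± 0.12 and 0.42 ± 0.12 (adjusted p = 0.00691), and St14 1.07 ± 0.11 and 0.22 ± 0.11 (adjusted p = 0.0364). Car5b, a mitochondrial carbonic anhydrase, and Podnl1 were called as well. Maf, Egr2 and Egr3, factors induced by T cell receptor signals, were not called in the syngeneic comparison by itself but had changes of opposite sign in the 2 arms. Egr2 was at 11.5, 9.89 and 9.83 CPM in syngeneic WT, 15.4, 15.7 and 15.9 CPM in syngeneic KO, and 24.0 ± 3.97 CPM in allogeneic WT and 15.7 ± 2.55 CPM in allogeneic KO, and its difference of changes was 1.20 ± 0.22 (adjusted p = 0.0347). Pdcd1, Havcr2, Tigit and Gzmk did not pass the interaction test (adjusted p = 0.347, 0.145, 0.0541 and 0.342). Among the rises that passed the interaction test Pydc3 had the larger change after allogeneic transplant, 2.07 ± 0.19 against 0.74 ± 0.18 (adjusted p = 0.0399).

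Several steep falls had small changes after allogeneic transplant. Alas2 had −6.55 ± 0.53 after syngeneic and −0.29 ± 0.53 after allogeneic transplant, at 1.09 ± 0.248 CPM in allogeneic WT and 0.859 ± 0.286 CPM in allogeneic KO. Xpo7 had −1.51 ± 0.15 and 0.17 ± 0.15, with 104 ± 4.06 CPM in allogeneic WT and 117 ± 11.6 CPM in allogeneic KO, close to the syngeneic KO level of 95.1, 99.7 and 94.1 CPM. Rsad2 had −3.68 ± 0.32 and −0.28 ± 0.30, with a mean of 5.76 CPM in allogeneic WT, under its mean of 9.69 CPM in syngeneic KO. The red cell list had a median change of −4.39 after syngeneic and −0.12 after allogeneic transplant, and its summed level in allogeneic WT was 94.3 to 326 CPM, far under syngeneic WT.

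**Figure D5:**
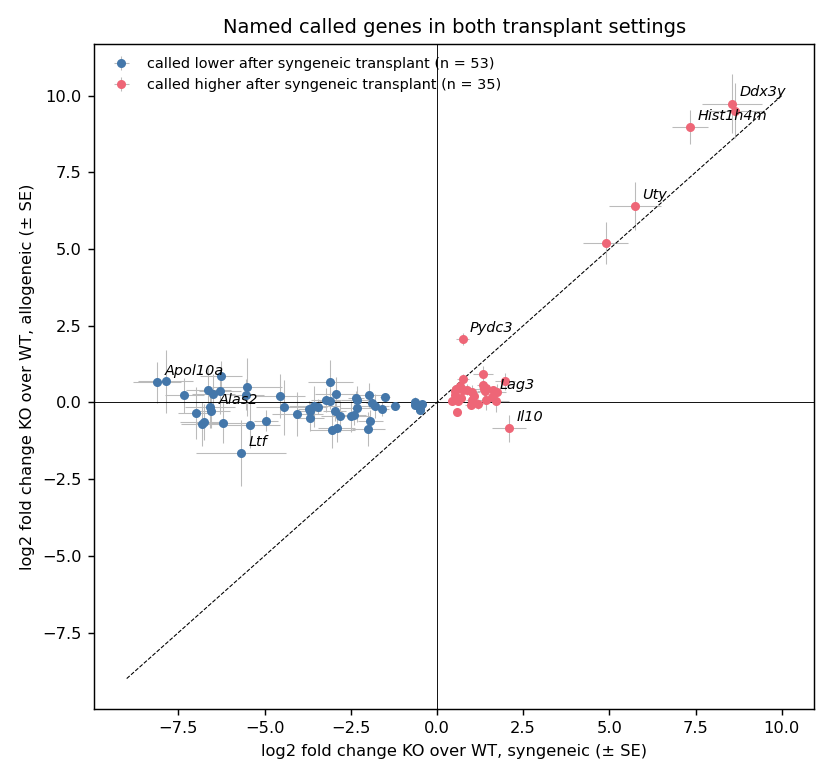
Log2 fold change of KO over WT (± SE) after syngeneic (x) and allogeneic (y) transplant for the 53 falls and 35 rises named by the rule; the dashed line marks equal change. Most falls line up along y near 0, apart from Ltf (−1.64), Y-linked genes and Hist1h4m lie near the dashed line, and Il10 rose after syngeneic transplant with an allogeneic value below 0.

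Some risen and fallen genes lay next to another gene called in the same direction. Of the 137 risen genes 14 (10.2%) had an adjacent tested gene that rose, against 1.49% of all tested genes, and 4 of those 14 were the Y-linked genes. Of the 485 fallen genes 98 (20.2%) had an adjacent gene that fell, against 5.14%. Lag3 and Ptms, a small acidic nuclear protein, lie 1975 bases apart on chromosome 6: Ptms went from 26.1, 23.1 and 27.1 CPM in WT to 47.8, 38.2 and 43.5 CPM in KO (0.76 ± 0.12, edgeR adjusted p = 0.00323). Esm1, a secreted proteoglycan, lies on the opposite strand within the span of Gzmk on chromosome 13 and went from 1.03, 0.890 and 1.04 to 3.76, 3.42 and 1.92 CPM (1.62 ± 0.26, adjusted p = 0.00384). Whether counting used the strand is not given, so reads of overlapping genes cannot be told apart. Among falls such pairs joined Hbb-bt with Hbb-bs, Apol10a with Apol11a, H2-Ab1 with H2-Aa, the 3 C1q genes, and Dmtn with Xpo7, all of which lie in family clusters except the last. These pairs were picked after their values were seen. The median gene span was 26090 bases for risen, 25633 for fallen and 15239 for all tested genes.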

How the data were processed

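Total RNA was sequenced from sorted donor T cells; the 6 syngeneic libraries (3 WT, 3 KO) are the subject, and 6 allogeneic libraries entered the fit. The deposited values are expected counts per gene: totals differ between libraries and 94.5 to 95.0% of values are whole, zeros included. Before deposit the authors turned reads into these estimated counts on GRCm38 with tools that, per the submitters' processing notes, include Bowtie2 2.2.1, TopHat2 2.0.13, Cuffdiff 2.2.1 and Cufflinks. Which tool made the counts, the annotation and the strand setting are not given in the sources used here. Reads of near-identical copies could have been split by that counting. The 6 further columns with an allo prefix match no sample name and were not used, and 6 naive samples were not analysed here.

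Counts were rounded and fitted with edgeR 4.0.16 (R 4.3.3, limma 3.58.1): 12 libraries, 1 mean per group, TMM scaling, filterByExpr (minimum count 10; 18447 of 46073 genes kept), robust quasi-likelihood, two-sided F tests, Benjamini-Hochberg adjustment over all tested genes, calls under 0.05. The p-values printed for single genes come from this fit unless DESeq2 1.42.0, the replicate block or a left-out library is named. Those come from separate fits. SE was taken as the size of the log2 fold change over the root of F. The biological coefficient of variation was 0.249 with 8 residual degrees of freedom. The fitting code was also run on simulated counts drawn independently for each library, with known changes in some genes. That run had no cell mixture or shared order of libraries, so it does not bear on those features here. Positions come from GENCODE M21 (GRCm38), matched by identifier for 45225 genes. RefSeq promoter sequences (GRCm38.p6) were matched by symbol for 11583 tested genes.

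The comparison, members and gene lists were chosen with earlier results of these data known. Named genes are Wapl; the 12 largest rises and falls of at least 5 CPM that did not overlap and held in each leave-one-out fit, leaving out unnamed, receptor segment and small RNA genes; the 10 most abundant calls in each direction; up to 5 calls per list (up to 2 values where there were none); landmark genes; and up to 10 interaction calls in each direction. The rule gave 142 genes, part of which are described; some are not reported here. Gata1, Klf1, Tfrc, Sptb, Ank1, Alas1, Slc40a1, Spic, Igkc, Xist, Mpo, Elane, Ngp, S100a9, Ptms, Esm1 and Dmtn lie outside it and were chosen after their values were seen. Other settings tried were RLE scaling, DESeq2, no filter, no ribosomal RNA genes, unrounded counts, a replicate block, the syngeneic libraries alone with and without it, and each library left out.

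The series' design text calls the triplicates independent, and no label says that numbers pair them. Deviations of same-numbered syngeneic WT and KO libraries correlated at 0.545, 0.170 and 0.335. Every pair passed the rule used here (over 0.1), so the numbers were also fitted as a block. The main fit, which gave the calls, has no block. Unlike-numbered syngeneic pairs ran from −0.501 to 0.363, and same-numbered allogeneic pairs gave 0.0098, −0.137 and 0.184. These values do not settle whether the numbers pair libraries. Blocked values are printed where they change the call of a named gene or the count of a gene list.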

Additional observations from a re-analysis of the deposited data

Results flagged for a closer look

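For 34 named genes the KO change after syngeneic transplant differed from that after allogeneic transplant, tested as the difference of the 2 log2 fold changes (edgeR interaction term, adjusted p under 0.05, n = 3 libraries in each of 4 groups). The value in brackets is that difference, syngeneic minus allogeneic. It was positive for Lag3 (1.41), Zbtb32 (1.21), Podnl1 (0.91), Maf (1.26), Car5b (1.23), Egr2 (1.20), St14 (0.85) and Egr3 (1.21). Among genes of red cell precursors and their membrane skeleton it was negative for Hbb-bs (−6.13), Hbb-bt (−6.43), Hba-a2 (−6.11), Alas2 (−6.26), Slc4a1 (−5.54), Epb4.2 (−5.78) and Epb4.1 (−1.11), and among genes of haem synthesis for Slc25a37 (−3.50), Fech (−2.68) and Abcb10 (−3.30). It was also negative for the Apol genes Apol10a (−8.77), Apol11a (−8.56), Apol11b (−7.56) and Apol8 (−3.20). Their means in allogeneic WT were only 0.0766, 0.0126, 0.471 and 1.06 CPM in that order, which left little room for a fall there. Apol11a had 1 count in all over the 3 syngeneic KO libraries, so the size of its fitted value is uncertain. The remaining negative differences were Itsn1 (−3.32), Fhdc1 (−4.36), Cd36 (−7.12), Xpo7 (−1.68), Ube2o (−1.86), Cdr2 (−2.51), Ube2l6 (−3.17), Rsad2 (−3.40), Sowaha (−6.76), Ypel4 (−6.66) and Slfn14 (−6.65). Slfn14 too was near the floor in allogeneic WT, with a mean of 0.0731 CPM. Pydc3 (−1.33) rose in both arms, by more after allogeneic transplant. The red cell list summed to 3129, 8048 and 6842 CPM in the syngeneic WT replicates and to 94.3 to 326 CPM in the allogeneic libraries; its part in these differences was not tested.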

How the results depend on the processing

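With DESeq2 the syngeneic comparison gave 270 genes higher and 748 lower and the interaction 293 genes, against 137, 485 and 88 by edgeR. On the 6 syngeneic libraries alone with no replicate block 73 were higher and 276 lower, and with the replicate block 382 were higher and 905 lower. The replicate block in the fit of 12 libraries gave 139, 640 and 127. Leaving out 1 library gave 50 to 110 genes higher, 210 to 650 lower and 28 to 242 in the interaction; such fits also have fewer libraries. RLE scaling gave 129 higher and 501 lower, no filter 124 and 463, leaving out ribosomal RNA genes 115 and 517, and unrounded counts 137 and 485. Among the values of named genes under these settings 1733 kept direction and side of the threshold, 213 lost their call, 40 gained one and 0 changed sign while called. With the replicate block in the fit of 12 libraries Ccl3 lost its call and Cxcr3, Gapdh and Blk gained one; no other named gene changed. RLE scaling moved the median change over all genes from 0.06 to 0.04. The causes of these shifts were not tested. With 3 libraries a group, small changes of genes under 1 CPM (16 of the rises and 54 of the falls) are the least certain. The p-values measure the spread between these pooled libraries.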
